A study of Mus musculus with 28 samples.

Results

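BMP5 and BMP7 were compared directly in 6 samples of mouse small-intestinal organoids, out of 28 samples in the series. The 3 BMP5 and 3 BMP7 samples were taken by their titles, which carry the replicate numbers II, III and VI in both groups. The organoids are wild-type C57BL/6 epithelial cultures, and each sample had received recombinant Bmp5 or recombinant Bmp7 at 500 ng/ml for 24 h. The doses therefore match by mass. Untreated organoids of the same genotype (4 samples, numbers II, III, IV and VI) serve as the reference level. An organoid culture holds epithelium without the mesenchyme that supplies BMPs in the gut. Per its title, the series asks which Tgfb superfamily ligands drive enterocyte maturation at the villus tip.

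BMP5 and BMP7 belong to the same branch of the BMP family. BMPs bind pairs of type I and type II serine/threonine kinase receptors, which phosphorylate Smad1, Smad5 and Smad9. These bind Smad4, enter the nucleus and switch on genes such as the Id genes, together with the inhibitory Smads that limit the signal. In the intestine BMP signalling is low in the crypt, where stem cells divide, and high towards the villus tip.

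Values below are normalised read counts, that is reads per gene divided by the authors' size factor for the sample. The 7 epithelial marker genes together reached 174400 to 279900 in the BMP5 samples, 210600 to 293200 in the BMP7 samples and 97880 to 109000 in untreated samples. Of 7 mesenchymal markers, 5 were present in the deposited values. Together these reached 13.5 to 25.5 with BMP5 and 19.2 to 22.1 with BMP7, and 0 of them passed the filter on low values. Immune markers summed to 48.4 to 61.0 with BMP5 and 33.6 to 51.7 with BMP7. Endothelial markers summed to 598.7 to 781.6 with BMP5 and 589.4 to 718.8 with BMP7, nearly all of it from Pecam1, and Kdr was at 0 in all 6 samples. Neural and glial markers summed to 17.6 to 27.3 with BMP5 and 20.2 to 25.4 with BMP7, and erythroid markers reached at most 0.962.

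Between same-numbered samples of the 2 ligands, the median absolute log2 difference over genes was 0.232 for number II, 0.125 for III and 0.123 for VI. Between samples of 1 ligand it was 0.190 to 0.300. BMP5 II and BMP7 II thus lay as far apart as samples of 1 ligand did, and the other pairs lay closer than that. BMP5 II lay nearer to BMP7 III (0.201) than to BMP7 II.

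Few genes passed the test between BMP5 and BMP7. By limma with Benjamini-Hochberg adjustment, 2 of 14746 genes differed (0.0136%): Tbx3, a T-box repressor and known BMP target, rose with BMP7 relative to BMP5, and Ptprt, a receptor-type protein tyrosine phosphatase, fell. The number of genes at an unadjusted p under 0.05 was 347 (2.35%), of which 109 were higher and 238 lower with BMP7. In the same fit BMP2 differed from BMP5 in 9581 genes and from BMP7 in 9262, and BMP4 differed from them in 8863 and 8818. The SD over genes of the log2 difference was 0.325 between BMP7 and BMP5, and 1.21 to 1.55 between the other pairs among BMP2, BMP4, BMP5 and BMP7.

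The absence of a call does not show that the ligands act alike. The median 95% interval extended 0.382 on the log2 scale either side of the estimate. For 11774 genes (79.8%) the whole interval lay within a 2-fold difference, and for the others a difference of that size was not excluded by the interval. With the replicate number as a block, the median interval extended 0.289 either side, and 84.8% of intervals lay within a 2-fold difference. That fit called 6 genes (0.0407%), and 861 had an unadjusted p under 0.05 (5.84%). The added calls were Id3 and Enpp3, higher with BMP7, and Vim and Gcg, lower. The block fitted on the 6 samples alone called 0 genes and left 882 at an unadjusted p under 0.05. DESeq2 on the recovered reads, without a block, called 23 genes, among them Tbx3, Id1, Id3 and Sct higher and Ptprt, Bmp3, Neurog3, Gcg and Vim lower. Leaving out 1 library at a time left between 0 calls (without BMP5 II, BMP5 VI, BMP7 II or BMP7 III) and 9 calls (without BMP5 III).

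**Figure D1:**
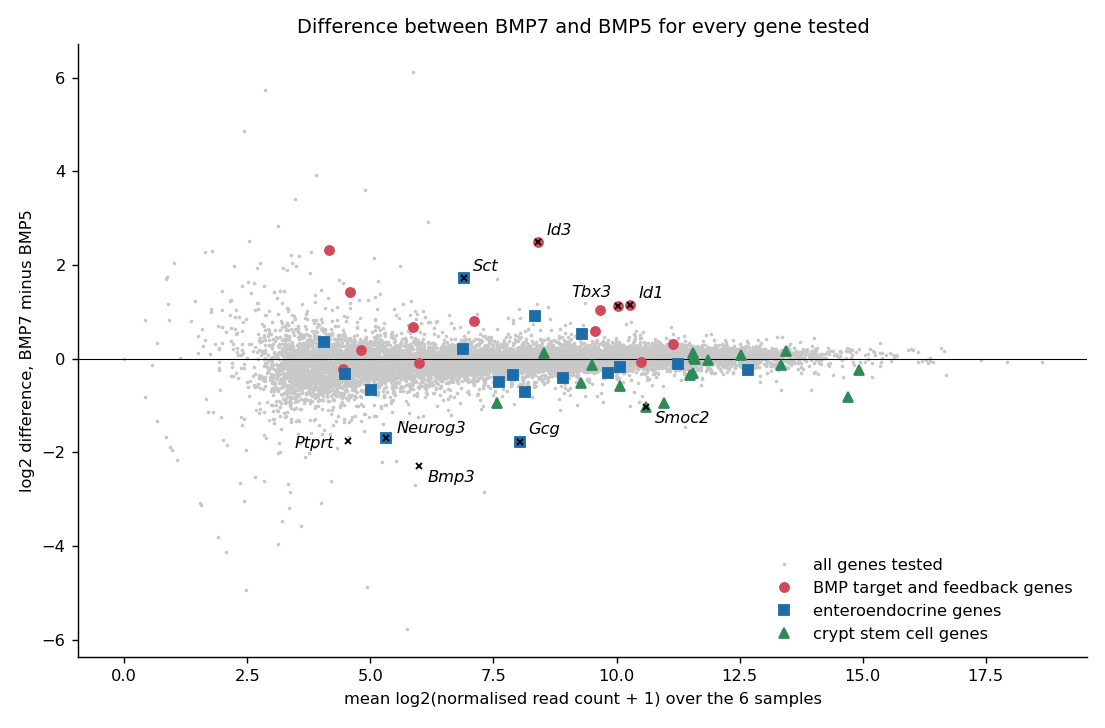
Log2 difference (BMP7 minus BMP5, vertical axis) against the mean log2(normalised read count + 1) over the 6 samples (horizontal axis) for the 14746 genes tested, with 3 gene lists coloured and single genes marked by crosses. Most genes lie close to 0, while Id3, Id1, Tbx3 and Sct stand above the cloud and Ptprt, Neurog3, Gcg and Bmp3 below it.

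Several direct target genes of BMP signalling had higher values with BMP7, and 1 passed the main test. Of 20 BMP target and feedback genes, 14 passed the filter on low values, and 11 of these had a positive difference. By limma without the block, Tbx3 was the only one called. There 7 of the 14 had an unadjusted p under 0.05, each of them higher with BMP7, against 0.739% of all genes in that direction. DESeq2 on the recovered reads called 3 of the 14 (Tbx3, Id1 and Id3), and 6 of all 14746 genes, higher. With the replicate block it called 5 of the 14, and 25 of all genes, higher. The added calls were Id2 and Smad9 (DESeq2 adjusted p = 0.0045 and 0.023). edgeR called 1 of the 14 with or without the block. The BMP5 and BMP7 values did not overlap in 7 of the 14, again each higher with BMP7, against 2.45% of all genes. The list's median log2 difference was 0.74, beside 0.010 over all genes tested. With any 1 library left out, the number of members at an unadjusted p under 0.05 was 6 to 8 and the median 0.64 to 0.89. Over all 14746 genes that number was 242 to 673 in these fits, in either direction. Msx2, Tbx2, Nog, Grem1, Bmper and Zeb2 were too low to be tested. The filter, a mean of at least 10, was taken over 20 samples, the BMP7 samples among them. Smad9 averaged 6.51 untreated, 8.88 with BMP5 and 41.1 with BMP7, so it passed only through samples in which it was higher. It is 1 of the 7 in both counts above.

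Tbx3 had 651, 914 and 603 normalised read counts with BMP5 in replicates II, III and VI, and 1890, 1400 and 1390 with BMP7. The lowest BMP7 sample was above the highest BMP5 sample. Its log2 difference was 1.12 (SE 0.18, 95% interval 0.74 to 1.49, limma adjusted p = 0.047), a 2.17-fold rise. The untreated samples had 460 to 562. Over 20 alternative settings the adjusted p ran from 2.8e-06 to 0.63, and 10 of them kept the call. Without BMP5 II, BMP5 VI, BMP7 II, BMP7 III or BMP7 VI the adjusted p was 0.32, 0.31, 0.52, 0.12 and 0.075.

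The Id genes encode inhibitors of basic helix-loop-helix factors and are the best known direct BMP targets. Id1 had 667, 1070 and 792 normalised read counts with BMP5 and 2330, 1480 and 1800 with BMP7. These groups did not overlap, and the log2 difference was 1.15 (95% interval 0.72 to 1.59, limma adjusted p = 0.11). Id3 had 123, 378 and 61.1 with BMP5 and 1240, 698 and 594 with BMP7. Every BMP7 sample was above every BMP5 sample, with a log2 difference of 2.49 (95% interval 1.54 to 3.43). Its limma adjusted p was 0.11 without the block and 0.047 with it. Id2 had 501, 1000 and 351 with BMP5 and 1200, 1450 and 900 with BMP7. Its groups overlapped, since BMP5 III lay above BMP7 VI (log2 difference 1.05, 95% interval 0.29 to 1.81, limma adjusted p = 1). Id4 stayed between 14.8 and 42.2 in the 6 samples, with an interval from -0.59 to 0.97.

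Against untreated organoids, Id1 and Id3 rose with both ligands. Id1 was 2.65 above untreated on the log2 scale with BMP5 and 3.80 with BMP7, with limma adjusted p-values of 7.3e-08 and 1.2e-09. For Id3 the values were 2.27 and 4.76, with limma adjusted p-values of 0.00053 and 1.9e-07. Id2 was 0.73 above untreated with BMP5 (limma adjusted p = 0.12) and 1.78 with BMP7 (limma adjusted p = 0.00050). Id4 differed from untreated by -0.39 and -0.20, and neither value passed the test. Both differences use the same 4 untreated samples. Of the 14 tested list members, 7 rose against untreated with BMP5 and 10 with BMP7, where 16.5% and 19.2% of all genes rose. The list's median log2 difference from untreated was 0.62 with BMP5 and 1.75 with BMP7.

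The feedback Smads were less uniform. Smad6, an inhibitory Smad that blocks BMP receptor signalling, had 86.1, 125 and 101 normalised read counts with BMP5 and 211, 156 and 178 with BMP7. Its groups did not overlap, and the interval of the log2 difference, -0.15 to 1.76, included 0. With the block it was 0.06 to 1.55 (limma adjusted p = 0.82). Smad7, which blocks both BMP and Tgfb receptors, had 455, 640 and 807 with BMP5 and 1290, 614 and 1020 with BMP7. BMP7 III lay within the BMP5 range. Smad9, the third BMP-regulated Smad, had 4.48, 18.5 and 3.65 with BMP5, where untreated samples had 3.30 to 10.6, and 59.9, 37.3 and 26.0 with BMP7. The log2 difference was 2.33 (95% interval 1.21 to 3.45, limma adjusted p = 0.35). Msx1, a homeobox target, had 17.0, 25.9 and 5.47 with BMP5 and 50.8, 30.1 and 36.6 with BMP7 (log2 difference 1.42, 95% interval 0.54 to 2.31). Smad9 and Msx1 rest on few reads. Atoh8, a helix-loop-helix factor, had 35.2 to 55.6 with BMP5 and 63.8 to 82.6 with BMP7, with an interval of -0.09 to 1.44. The ubiquitin ligase gene Smurf1 had an interval of -0.06 to 0.68. For Bambi, a decoy receptor, it was -1.04 to 0.86, for Hes1 -0.85 to 0.72 and for Hhex -1.56 to 1.13.

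The size of the gap depended on the pair. In replicate III the log2 difference between BMP7 and BMP5 was 0.47 for Id1, 0.88 for Id3, 0.54 for Id2 and 0.97 for Smad9. In replicate II it was 1.80, 3.32, 1.26 and 3.47 for the same genes, and in VI 1.18, 3.26, 1.36 and 2.54. BMP5 III was the highest BMP5 sample for Id1, Id2, Id3, Smad6, Smad9, Msx1 and Tbx3. Without it 9 genes were called by limma: Tbx3, Id1, Id3, Smad9 and Sct higher with BMP7, and Ptprt, Bmp3, Pdgfa and the gene model 6330403L08Rik lower.

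**Figure D2:**
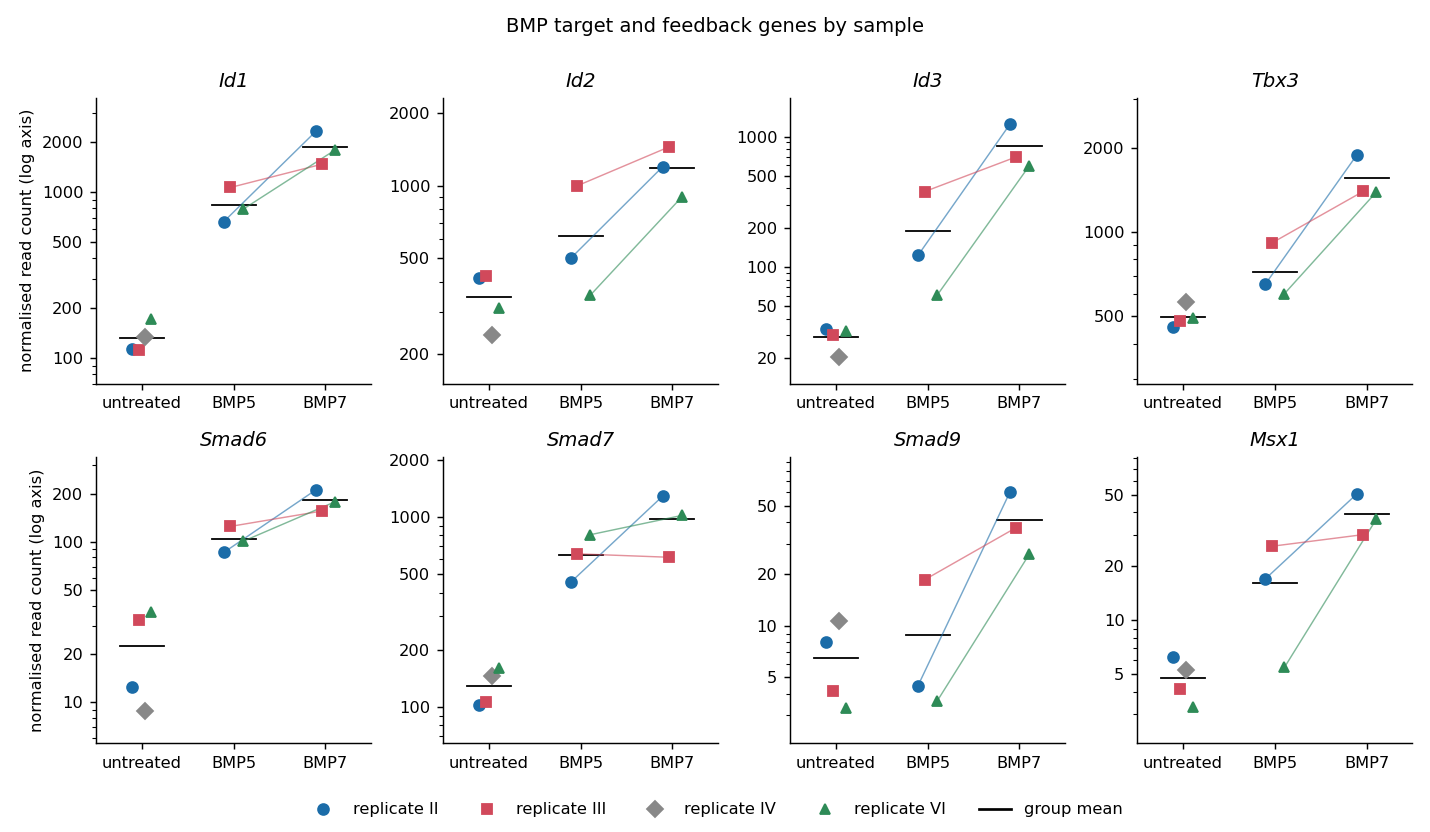
Normalised read counts (log axis) of 8 BMP target and feedback genes in untreated, BMP5 and BMP7 samples, with 1 point per sample, bars at the group means and thin lines joining BMP5 and BMP7 samples with the same replicate number. The lines rise from BMP5 to BMP7 in every pair shown except Smad7 in replicate III, and they are flattest in replicate III.

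Smad complexes bind 2 known short motifs in BMP response elements, GGCGCC, which reads the same on both strands, and GTCT, searched as GTCT or AGAC. These motifs cannot overlap each other. RefSeq promoter sequences (GRCm38.p6, 250 bases before the gene's start, 5′ to 3′ on the gene's strand) were matched for 13 of the 20 list genes. GGCGCC was found in 5 of these 13 (Id2, Id4, Smad9, Hhex and Grem1) and in 9.59% of 32851 promoters, and GTCT in 10 of 13 and in 82.9%. The windows of Id3, Id2 and Smad9, a selection of the target genes, are printed with that of Ptprt, which differed in the other direction. Capitals mark both motifs. They lie at chr4:136143572-136143821 (plus strand) for Id3, chr12:25096093-25096342 (minus) for Id2, chr3:54755332-54755581 (plus) for Smad9 and chr2:162661148-162661397 (minus) for Ptprt.
Id3: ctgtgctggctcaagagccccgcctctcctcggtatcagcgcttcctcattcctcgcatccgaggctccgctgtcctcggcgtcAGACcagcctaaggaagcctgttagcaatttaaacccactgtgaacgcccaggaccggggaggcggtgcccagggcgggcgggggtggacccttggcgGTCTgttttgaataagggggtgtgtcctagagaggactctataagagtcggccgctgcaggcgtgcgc
Id2: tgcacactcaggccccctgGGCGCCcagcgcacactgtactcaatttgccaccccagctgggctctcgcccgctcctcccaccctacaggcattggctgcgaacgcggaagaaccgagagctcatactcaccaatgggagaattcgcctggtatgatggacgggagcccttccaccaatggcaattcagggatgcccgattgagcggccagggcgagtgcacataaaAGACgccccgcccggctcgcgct
Smad9: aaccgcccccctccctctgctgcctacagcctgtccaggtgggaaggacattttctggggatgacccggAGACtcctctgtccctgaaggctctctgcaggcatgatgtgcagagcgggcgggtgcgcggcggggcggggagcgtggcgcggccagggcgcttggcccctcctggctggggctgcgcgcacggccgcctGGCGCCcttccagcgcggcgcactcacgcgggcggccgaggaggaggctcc
Ptprt: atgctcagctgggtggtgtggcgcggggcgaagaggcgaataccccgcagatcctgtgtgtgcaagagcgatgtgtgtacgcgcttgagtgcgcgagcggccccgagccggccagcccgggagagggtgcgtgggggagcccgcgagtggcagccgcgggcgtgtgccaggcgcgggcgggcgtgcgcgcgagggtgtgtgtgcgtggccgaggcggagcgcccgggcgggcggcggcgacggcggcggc
GGCGCC began 231 bases before the start in Id2 and 51 bases before it in Smad9, and these letters did not occur in the windows of Id3 and Ptprt. GTCT or AGAC occurred 2 times in Id3, 1 time each in Id2 and Smad9, and 0 times in Ptprt. The printed windows do not stand for the whole list. Msx1, with a log2 difference of 1.42, was matched and held neither motif. Id4 (0.19) and Hhex (-0.22) held GGCGCC. The promoters of Tbx3 and Id1 were not matched. Whether the motifs go with the differences was not tested. A match is a sequence description and not a measured binding site.

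Receptor and Smad transducer genes differed little. Of 15 receptor and co-receptor genes 10 were tested and 0 were called by limma, where 0.0136% of all genes were. At an unadjusted p under 0.05, Acvr1 was higher (0.739% of all genes) and Rgmb lower (1.61%). The list's median log2 difference was -0.037, and 9 of the 10 intervals lay within a 2-fold difference, against 79.8% of all genes. Bmpr1a, the main type I BMP receptor of the intestine, had 4740, 4580 and 4000 normalised read counts with BMP5 and 4510, 4550 and 3980 with BMP7. Its interval was -0.25 to 0.19. Bmpr2, the BMP type II receptor, had 3520, 4100 and 3330 with BMP5 and 4150, 4200 and 2830 with BMP7, with an interval of -0.34 to 0.36. Its untreated values, 1440 to 2070, lay below both ligands. Acvr1, a type I receptor used by BMP7 and its relatives, had 763, 1210 and 1150 with BMP5 and 1320, 1120 and 1300 with BMP7. The interval was 0.02 to 0.55, and without BMP5 II the log2 difference was 0.08. Acvr2a and Acvr2b, type II receptors shared by BMPs and activins, had intervals of -0.09 to 0.26 and -0.62 to 0.23. For Acvr1b, Acvr1c, Tgfbr1 and Tgfbr2, the intervals were -0.41 to 0.25, -1.09 to 0.13, -0.39 to 0.30 and -0.31 to 0.52. Bmpr1b, Acvrl1, Eng, Tgfbr3 and Rgma were too low to be tested.

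All 5 Smad transducers had intervals within a 2-fold difference, as did 79.8% of all genes. The BMP-regulated Smad1 had 806 to 945 with BMP5 and 826 to 926 with BMP7, with an interval of -0.22 to 0.16. Smad5 had 1550 to 1660 with BMP5 and 1340 to 1620 with BMP7 (interval -0.35 to 0.06). For Smad4, the common partner, the interval was -0.12 to 0.23. It was -0.05 to 0.26 for Smad2 and -0.22 to 0.39 for Smad3, the Tgfb-regulated Smads.

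**Figure D3:**
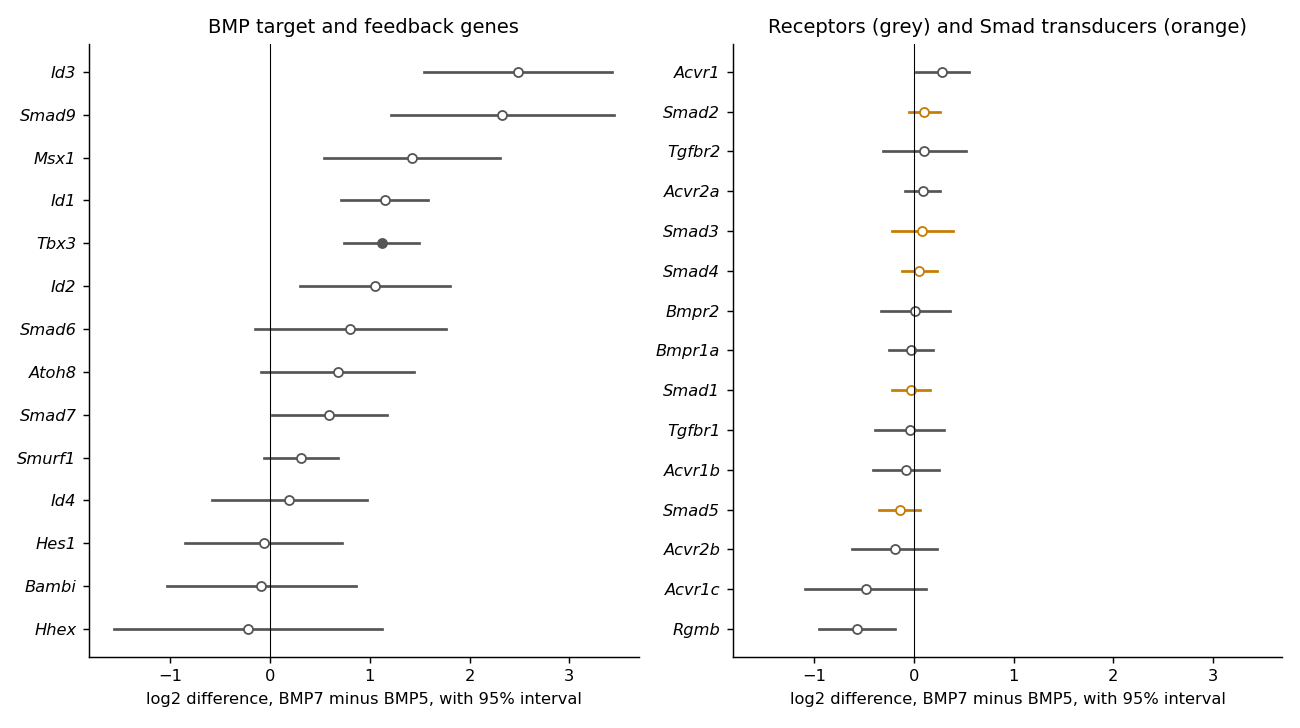
Log2 difference (BMP7 minus BMP5, horizontal axis) with its 95% interval from limma for each tested BMP target (left), receptor (right, grey) and Smad transducer (right, orange). The filled point is Tbx3, the 1 gene with an adjusted p under 0.05. The intervals of 7 of the 14 target genes lie wholly above 0, whereas 13 of the 15 receptor and Smad intervals include 0.

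Among the ligand genes of the superfamily, 9 of 16 were tested, 0 were called by limma (0.0136% of all genes), and Bmp3 had the smallest p. Bmp3, whose product is an atypical BMP that opposes other BMPs, had 251, 65.8 and 159 normalised read counts with BMP5 and 25.4, 20 and 41.4 with BMP7. Untreated samples had 1000 to 1330. All BMP7 samples lay below all BMP5 samples, and all BMP5 samples below all untreated samples. The log2 difference was -2.28 (95% interval -3.19 to -1.37, limma adjusted p = 0.11, edgeR adjusted p = 0.033). The gene Bmp7 itself had 374, 231 and 193 with BMP5 and 162, 209 and 130 with BMP7, groups that overlapped (interval -1.67 to 0.40). Untreated samples had 422 to 592. The gene Bmp5 was at 0 in 5 of the 6 samples and at 0.911, or 1 read, in BMP7 III, so endogenous Bmp5 did not exceed 1 read at this depth.

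Ptprt was the gene called in the other direction. It had 42.2, 34.3 and 51.1 normalised read counts with BMP5 and 10.9, 9.11 and 16.4 with BMP7. Untreated samples had 15.8 to 24.0, so every BMP5 sample lay above them, and BMP7 II and III lay below them. The log2 difference was -1.75 (SE 0.28, 95% interval -2.33 to -1.16, limma adjusted p = 0.047). With the block the adjusted p was 0.0088. Relative to untreated, Ptprt rose by 1.02 with BMP5 (limma adjusted p = 0.0070) and fell by 0.73 with BMP7 (limma adjusted p = 0.039). Over the 19 alternatives that tested it, the adjusted p ran from 5.6e-05 to 0.74, and 10 kept the call. Without BMP5 II, BMP5 VI, BMP7 II or BMP7 III it was 0.32, 0.31, 0.52 and 0.19. The gene rests on few reads.

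Enteroendocrine cells are the rare hormone-producing cells of the gut epithelium. All 17 enteroendocrine genes were tested, and 0 were called without the block, where 0.0136% of all genes were. At an unadjusted p under 0.05, 1 was higher with BMP7 (0.739% of all genes) and 4 were lower (1.61%). The groups did not overlap in 8 of the 17, of which 6 were lower with BMP7, against 4.10% of all genes lower and 2.45% higher. The median log2 difference was -0.31. Without BMP7 II the 4 lower genes became 2, and without BMP7 VI the median was -0.19. Of all 14746 genes, 242 had an unadjusted p under 0.05 without BMP7 II, in either direction. In bulk samples, fewer cells of a type and less RNA per cell cannot be told apart.

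Neurog3, the transcription factor that starts the enteroendocrine lineage, had 95.1, 53.7 and 69.3 normalised read counts with BMP5 and 21.8, 23.7 and 18.3 with BMP7. Untreated samples had 110 to 193, and the 3 groups did not overlap. The log2 difference was -1.70 (95% interval -2.43 to -0.96, limma adjusted p = 0.18, edgeR adjusted p = 0.043). Gcg, which encodes proglucagon, the precursor of GLP-1, had 732, 329 and 465 with BMP5 and 156, 138 and 129 with BMP7. The BMP5 values covered the untreated range of 389 to 678, and the BMP7 values lay below it. Its log2 difference was -1.77 (95% interval -2.68 to -0.86), with a limma adjusted p of 0.49 without the block and 0.047 with it. Against untreated, Gcg differed by -0.17 with BMP5 (limma adjusted p = 0.79) and by -1.94 with BMP7 (limma adjusted p = 0.0011).

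Sct, which encodes the hormone secretin, went the other way. It had 42.2, 140 and 45.6 normalised read counts with BMP5 and 207, 218 and 222 with BMP7. The log2 difference was 1.72 (95% interval 1.01 to 2.43, limma adjusted p = 0.13). BMP5 III was the BMP5 sample nearest to the BMP7 samples. Tph1, which makes serotonin's precursor, had 587, 687 and 354 with BMP5 and 844, 782 and 661 with BMP7, with an interval of -0.10 to 1.18. With the block the interval was 0.19 to 0.88 (limma adjusted p = 0.50).

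Other members of the list lay on either side of 0. Neurod1, an enteroendocrine transcription factor, had 103 to 117 with BMP5 and 112 to 135 with BMP7 (interval -0.23 to 0.63). Nts, the neurotensin gene, had 12.6 to 14.6 and 15.4 to 23.1 (interval -0.33 to 1.03). Tac1, the substance P precursor, had 286 to 431 with BMP5 and 176 to 253 with BMP7 (interval -1.37 to -0.04). Pax6 had 34.3 to 51.1 and 17.2 to 33.7 (interval -1.24 to -0.11). Insm1, Gfra3 and Cplx2 are not in the list and were named after their values were seen. So were the list members Neurog3, Gcg, Tph1, Tac1, Pax6, Chga, Chgb and Pyy. Insm1, a zinc-finger factor of endocrine progenitors, had 82.4 to 144 and 62.5 to 74.4 (interval -1.13 to -0.25). Gfra3, a GDNF-family receptor, had 66.4, 37.0 and 56.6 with BMP5 and 28.1, 19.1 and 19.2 with BMP7 (interval -1.81 to -0.61). Cplx2, a complexin of vesicle release, had 219 to 313 with BMP5 and 163 to 181 with BMP7, against 183 to 222 untreated. Tac1, Pax6, Insm1, Gfra3 and Cplx2 were not called by limma, and their lowest adjusted p was 0.39. DESeq2 without the block called Gfra3 and Cplx2 (DESeq2 adjusted p = 0.012 and 0.020) and not Tac1, Pax6 or Insm1, and edgeR called none of them. The granule genes Chga and Chgb overlapped between ligands, with intervals of -0.86 to 0.52 and -0.84 to 0.38. Pyy, a peptide hormone gene with at most 2.66 in untreated samples, had 48.4, 537 and 508 with BMP5 and 536, 298 and 562 with BMP7. Its interval was -0.64 to 2.47, and without BMP5 II the log2 difference was -0.22.

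**Figure D4:**
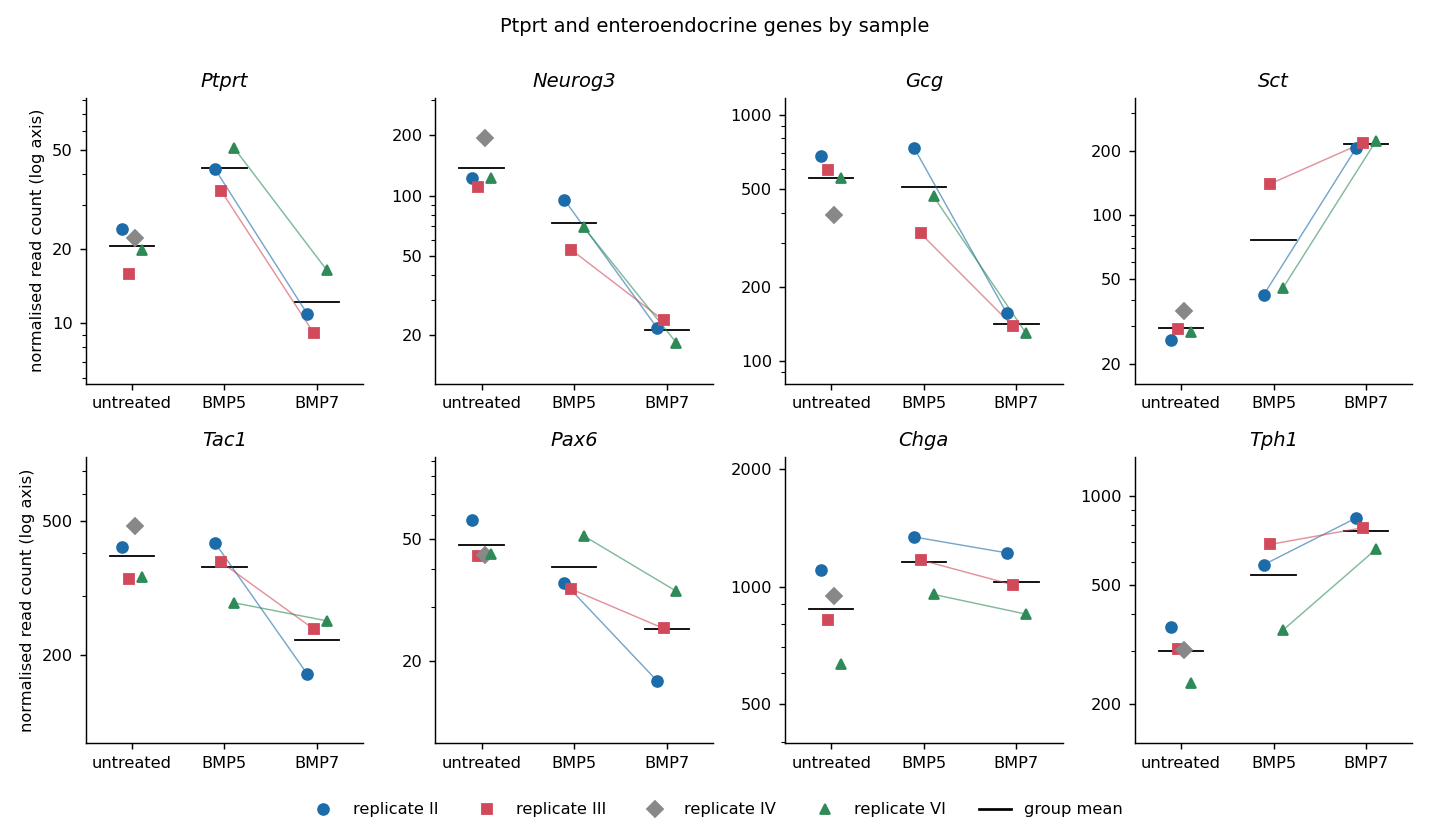
Normalised read counts (log axis) of Ptprt and 7 enteroendocrine genes in untreated, BMP5 and BMP7 samples, drawn with 1 point per sample, group means and lines between same-numbered samples. Ptprt, Neurog3, Gcg, Tac1 and Pax6 are lower with BMP7 without overlap, Sct is higher without overlap, and Chga and Tph1 overlap.

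Some crypt genes had lower values with BMP7, and none passed the main test. All 18 crypt stem cell genes were tested, and 0 were called by limma, where 0.0136% of all genes were. Of their differences 13 were negative, with a median of -0.19. At an unadjusted p under 0.05, 6 were lower (1.61% of all genes) and 0 higher: Lgr5, Smoc2, Rgmb, Lrig1, Msi1 and Tnfrsf19. Rgmb is also counted among the co-receptors above. The count was 2 without BMP5 II and 3 without BMP7 II or without BMP7 VI. In those fits 258, 242 and 314 of all 14746 genes had an unadjusted p under 0.05, in either direction. The median without BMP5 II was -0.059. DESeq2 on the recovered reads called 1 of the 18 lower (Smoc2, DESeq2 adjusted p = 0.045), where it called 17 of all 14746 genes lower. With the replicate block it called 3 lower: Lgr5, Tnfrsf19 and Rgmb (DESeq2 adjusted p = 0.015, 0.0036 and 0.047). That fit called 44 of all 14746 genes lower. edgeR called 0 with or without the block.

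Lgr5, the R-spondin receptor that marks stem cells, had 4010, 2640 and 2040 normalised read counts with BMP5 and 1360, 2050 and 1070 with BMP7. BMP7 III lay just above BMP5 VI, and the log2 difference was -0.95 (95% interval -1.86 to -0.04, limma adjusted p = 1). Smoc2, a stem cell gene for a secreted matrix protein, had 3700, 1550 and 1880 with BMP5 and 1030, 1190 and 1020 with BMP7, without overlap. Its log2 difference was -1.04 (95% interval -1.74 to -0.33, limma adjusted p = 1), and untreated samples had 5960 to 7130. Tnfrsf19, a Wnt target in crypts, had 340, 239 and 222 with BMP5 and 129, 146 and 133 with BMP7 (interval -1.83 to -0.06). Rgmb, a BMP co-receptor, had 2080, 962 and 1120 with BMP5 and 903, 896 and 839 with BMP7 (interval -0.96 to -0.19). Olfm4 had 64800, 20400 and 32900 with BMP5 and 19300, 18000 and 23400 with BMP7, and its interval included 0 (-2.01 to 0.39). In Lgr5, Smoc2, Tnfrsf19, Rgmb and Olfm4, BMP5 II was the highest of the 6 samples.

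Genes of cell division were taken as a separate list. Of 20 mitotic and replication genes, 0 were called by limma (0.0136% of all genes) and 0 had an unadjusted p under 0.05 (2.35%). The intervals of 17 lay within a 2-fold difference, against 79.8% of all genes. The median was 0.060, and it ran from -0.13 (without BMP5 VI) to 0.20 (without BMP5 II) with 1 library left out. Rrm2, a subunit of ribonucleotide reductase, had 1290, 1300 and 890 normalised read counts with BMP5 and 1370, 1410 and 1140 with BMP7, the smallest p of the list with an interval of -0.30 to 0.68.

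**Figure D5:**
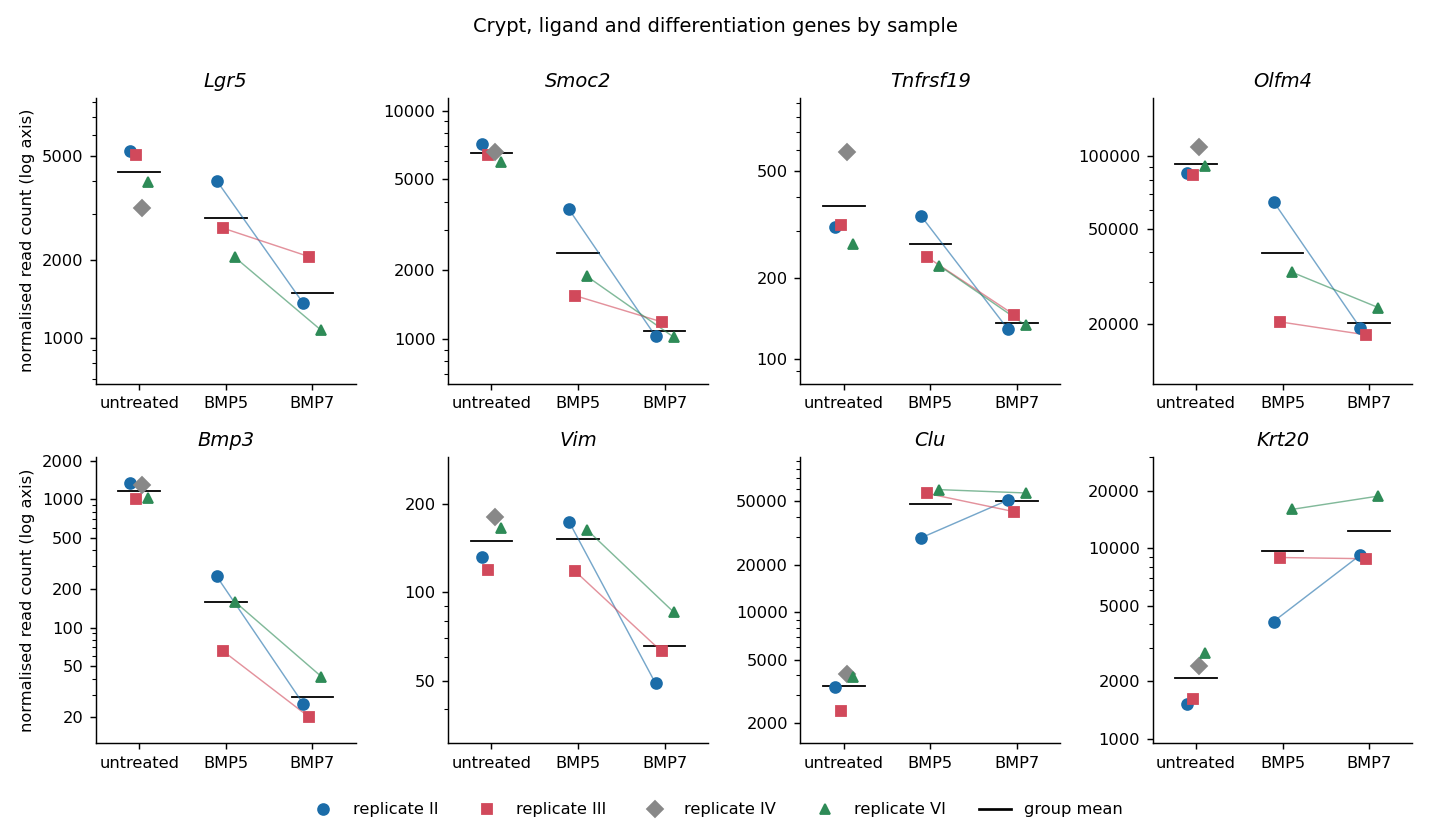
Normalised read counts (log axis) of 8 crypt, ligand and differentiation genes in untreated, BMP5 and BMP7 samples, with group means and lines between same-numbered samples. In Lgr5, Smoc2, Olfm4 and Bmp3 the BMP5 II sample is the highest treated sample, and in Clu and Krt20 it is the lowest treated sample.

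No enterocyte gene on the lists passed the test between the ligands, where 0.0136% of all genes did. The intervals of 79.8% of all genes lay within a 2-fold difference, a larger share than in each of these lists. Of 20 villus tip genes 0 were called by limma, and 12 intervals lay within a 2-fold difference. The median log2 difference was 0.29, with -0.059 without BMP5 II, 0.036 without BMP7 VI and 0.50 without BMP5 VI. The number at an unadjusted p under 0.05 was 1, higher with BMP7 (0.739% of all genes), and 0 to 4 with 1 library left out. Over all 14746 genes it was 242 to 673 in those fits, in either direction. Klf4, a factor of differentiated epithelium, had 613, 621 and 681 normalised read counts with BMP5 and 917, 719 and 873 with BMP7, without overlap (interval 0.05 to 0.71). Against untreated, 11 villus tip genes rose with BMP5 and 14 with BMP7, where 16.5% and 19.2% of all genes rose. Of 21 enterocyte brush border genes 0 were called, with a median of 0.038 and 14 intervals within a 2-fold difference. Anpep, the brush border aminopeptidase N, had 2170, 1240 and 2700 with BMP5 and 725, 1060 and 1830 with BMP7 (interval -1.47 to -0.11). Of 22 lipid uptake and metabolism genes 0 were called, with a median of 0.055 and 16 intervals within a 2-fold difference, and Cpt1a, which brings fatty acids into mitochondria, had an interval of 0.02 to 0.54.

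Several lists held many genes that rose over untreated with both ligands, and none of their members was called between the ligands, where 0.0136% of all genes were. The shares of all genes that rose over untreated were 16.5% with BMP5 and 19.2% with BMP7. For 79.8% of all genes the interval between the ligands lay within a 2-fold difference. The fetal-like, keratin and Tgfb target lists fell short of that share, and the adhesion list exceeded it. Of 16 fetal-like and regenerative genes, 14 rose against untreated with each ligand, with medians of 2.21 and 2.19. Between the ligands 9 of the 16 intervals lay within a 2-fold difference. Clu, a marker of regenerating epithelium, had 29500, 56100 and 59300 normalised read counts with BMP5 and 50900, 43100 and 56500 with BMP7, against 2390 to 4110 untreated. Il1rn, an interleukin-1 receptor antagonist, had an interval of -0.28 to 0.66. All 8 tested keratin genes rose with each ligand against untreated, and 6 intervals between the ligands lay within a 2-fold difference. Krt14, an epidermal keratin, had 61.9, 186 and 380 with BMP5 and 289, 205 and 467 with BMP7 (interval -0.61 to 2.37). Krt20, a keratin of mature villus cells, had 4120, 8940 and 16000 with BMP5 and 9190, 8810 and 18800 with BMP7. Replicate VI was the highest Krt20 sample with each ligand. Of 23 adhesion and cytoskeleton genes tested, 21 rose against untreated with each ligand, and 21 intervals between the ligands lay within a 2-fold difference. Dsc2, a desmosomal cadherin, had an interval of -0.07 to 0.51, and of 0.03 to 0.40 with the block (limma adjusted p = 0.77). Of 17 tested Tgfb and activin target genes, 13 rose with each ligand, and 10 intervals between the ligands lay within a 2-fold difference. Skil, a Smad co-repressor, had 3100, 5280 and 5230 with BMP5 and 5860, 4830 and 5270 with BMP7 (interval -0.11 to 0.64). The untreated samples are shared by both sets of counts.

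The secretory and immune lists held no call either, where 0.0136% of all genes were called. All 8 Paneth cell genes had negative differences, with a median of -0.26. At an unadjusted p under 0.05, 0 were lower (1.61% of all genes), and 4 were lower without overlap (4.10%). Pla2g2a, a phospholipase gene, had 365, 225 and 189 normalised read counts with BMP5 and 165, 169 and 95.3 with BMP7 (interval -2.12 to 0.43). Of 11 tested goblet cell genes the one with the smallest p was Spink4, with 1980 to 2970 with BMP5 and 1410 to 1940 with BMP7 (interval -1.31 to 0.16). Of 7 tested tuft cell genes it was Sh2d6 (interval -0.08 to 1.29). Of 20 immune modulator and antigen presentation genes it was Ccl25, a small-intestinal chemokine, with 1460, 679 and 1070 against 665, 854 and 915 (interval -0.78 to 0.10).

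A few genes outside these lists differed in some fits. Vim, an intermediate filament gene, had 174, 118 and 163 normalised read counts with BMP5 and 49.0, 62.9 and 85.6 with BMP7, against 119 to 180 untreated. Its log2 difference was -1.21 (95% interval -1.70 to -0.71), with a limma adjusted p of 0.13 without the block and 0.047 with it. Vim is also a mesenchymal gene. The 5 mesenchymal markers with deposited values summed to 13.5 to 25.5 with BMP5 and 19.2 to 22.1 with BMP7. Their highest single value was 17.3, and their part in the Vim difference was not tested. Enpp3, an ectonucleotidase, had 144, 278 and 463 with BMP5 and 370, 529 and 955 with BMP7. These groups overlapped, while the difference within each pair was 1.36, 0.93 and 1.04. Its limma adjusted p was 1 without the block and 0.047 with it. Pdgfa, a growth factor that epithelium sends to mesenchyme, had 1920, 1280 and 2270 with BMP5 and 703, 767 and 1240 with BMP7, against 3020 to 3500 untreated. Its log2 difference was -1.02 (95% interval -1.42 to -0.62, limma adjusted p = 0.11). Fam20c, a kinase of secreted proteins, had 306, 283 and 443 with BMP5 and 177, 141 and 205 with BMP7 (interval -1.35 to -0.58, limma adjusted p = 0.11). For Pdgfa and Fam20c the DESeq2 adjusted p was 0.00064 and 0.00065, and the edgeR adjusted p was 0.13 for each.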

How the data were processed

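Expression was measured by mRNA sequencing. Per the submitters' processing notes, reads were trimmed with Trim Galore, and Salmon, DESeq2 and the GRCm39 build were used. The deposited table holds a signal: each gene's read count over a size factor for its sample, rounded to 3 significant digits, as read from the values. Of 180721 deposited values at or below 20 reads, 99.1% lay within 0.05 of a whole read, so reads were recovered. The recovered reads came to 21849442 to 23423865 per BMP5 or BMP7 sample, where 1 read was worth 0.897 to 0.962. Counting error falls with the number of reads, and genes at a few reads are imprecise. Reads were not collapsed by molecular identifiers, so PCR copies are not independent molecules.

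The main test was limma 3.58.1 (R 4.3.3) with an intensity trend on log2(value + 1), over 14746 of 29413 genes whose mean across the 20 samples was 10 or more. All 6 groups entered 1 fit, so they share an estimate of the spread. The two-sided p-values were adjusted by Benjamini and Hochberg's method over the 14746 genes, with a threshold of 0.05. The fitted log2 difference understates changes of low genes. edgeR 4.0.16 (4 genes called) and DESeq2 1.42.0 (23 genes called) were run on the recovered reads. The scripts were tested on simulated data.

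Replicate numbers come from the sample titles, and what they mark is not stated in the sources used here, nor whether samples were separate cultures. The p-values therefore measure the spread between these samples, which may be technical. Deviations from the group means correlated across genes between same-numbered BMP5 and BMP7 samples, with r of 0.29 for II, 0.15 for III and 0.49 for VI. Between differently numbered samples r ran from -0.37 to 0.093, the highest for BMP5 II with BMP7 III. Because each same-numbered r was above 0.1, the numbers were taken to pair the samples. In the limma fit with the replicate number as a block, the number had an effect at an adjusted p under 0.05 in 5577 genes (37.8%). The main fit ignores this pairing, so its intervals are mostly wider. Intervals and p-values are from the main fit unless stated, and the blocked fit is given where it changes a call. For Smad6, Tph1 and Dsc2 it is given because its interval, unlike the main one, excluded 0.

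The samples, members of the 18 gene lists and tests were chosen with earlier results of these data known. Genes named are the members of the BMP target, receptor and Smad lists, the genes Bmp5 and Bmp7, and the smallest p of each other list. To these come up to 12 each way with the largest difference, and the 5 smallest p, among called genes that averaged 50 or more in the 6 samples and did not overlap. Ptprt, Enpp3, Vim, Pdgfa, Fam20c, Gcg, Neurog3, Gfra3, Cplx2, Insm1, Tac1, Pax6, Chga, Chgb, Tph1, Pyy, Lgr5, Olfm4, Smoc2, Tnfrsf19, Clu and Krt20 were named after their values were seen. Promoter sequences are from RefSeq, build GRCm38.p6. The Tgfb and mesenchymal cell tables were not used here, and 0 value columns were left unmapped.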

Additional observations from a re-analysis of the deposited data

Results flagged for a closer look

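In the 4 untreated samples, the highest or lowest value stood apart from the others by Dixon's criterion in 7 of 66 named genes, and chance flags about 1 in 20 groups. Untreated II was high for Bambi (102 normalised read counts), Smad2 (1370) and Pax6 (57.7). Untreated IV was high for Neurog3 (193) and Tnfrsf19 (588) and low for Rrm2 (1620). Untreated VI was low for Acvr2b (89.2). These values enter the differences from untreated and not the contrast of BMP5 with BMP7. Groups of 3 samples were not tested in this way.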

How the results depend on the processing

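The number of genes called between BMP5 and BMP7 was 2. It was 0 with a pseudocount of 0.1, 4 with a pseudocount of 5, 4 with no filter on low values, 0 with a mean of at least 50, and 1 both with the same total in every sample and with quantile normalization. It was 6 with the replicate block, 0 with the block in the 6 samples alone, 2 (other genes) in the 6 samples alone, and 10 with array weights. edgeR called 4 and DESeq2 23. With the replicate block, chosen after seeing the data, edgeR called 7 and DESeq2 69. Leaving out 1 replicate gave 0 to 9. The cause of these shifts was not tested.

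The 66 tested named genes gave 1312 alternative log2 differences, of which 37 changed sign, in 18 genes whose main interval included 0. With array weights the values were 0.51 for Hes1, -0.13 for Bmpr2, 0.077 for Acvr2b, 0.033 for Tgfbr1, 0.069 for Smad1, 0.13 for Ccl25, -0.073 for Pyy and -0.13 for Clu. With quantile normalization they were 0.0061 for Bambi, -0.050 for Bmpr2 and -0.0075 for Smad4, and with the same total -0.018 for Bmpr2. Leaving out 1 replicate gave -0.17 to 0.55 for Id4, -0.34 to 0.14 for Bambi, -0.44 to 0.33 for Hes1, -0.43 to 0.021 for Hhex, -0.10 to 0.033 for Bmpr1a, -0.085 to 0.20 for Bmpr2, -0.17 to 0.0086 for Acvr1b, -0.20 to 0.096 for Tgfbr1, -0.014 to 0.17 for Tgfbr2, -0.091 to 0.024 for Smad1, -0.026 to 0.19 for Smad3, -0.028 to 0.12 for Smad4, -0.12 to 0.40 for Il1rn, -0.22 to 1.501 for Pyy, -0.21 to 0.29 for Clu and -0.056 to 0.92 for Krt20. The sign did not change in the other 48 genes. Scaling to the same total or by quantiles moved the median of all genes by at most 0.030. Of 360 list medians under alternatives, 8 moved by more than the spread between replicates. Depth limits genes such as Smad9, Msx1 and Ptprt.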

Other observations

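Large differences at a moderate level were few. With a mean above 25 normalised read counts over the 6 samples, 22 genes had a log2 difference beyond 2 in either direction, and 20 of them were listed at 0 in at least 1 of the 6 samples. The 2 without a 0 were Id3 and Bmp3. This selection was made after the values were seen.

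Gene models that were at 0 in all samples of 1 ligand and present in all of the other were Rbx1-ps, Gm15900, Gm20708, Gm47457 and Gm43552. Rbx1-ps had 26.0, 31.5 and 31.9 with BMP5 and 0 with BMP7, and untreated samples ranged from 0 to 19.9. Gm43552 had 0 with BMP5 and 49.0, 44.6 and 65.4 with BMP7, and untreated samples ranged from 0 to 44.8. By limma their adjusted p-values were 0.34 and 0.51. Pseudogenes and near-identical copies share reads with other genes, so these values are uncertain.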
